A study of Mus musculus with 30 samples.

Results

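Autosomal gene expression was compared between the colon of 6 female and 6 male mice fed a high-fat diet (HFD) and given vehicle. The genes examined were those that lie on chromosomes 1 to 19, which are 41492 of the 46078 genes counted, and genes of the X, Y and mitochondrial chromosomes were left out. Of these autosomal genes, 14691 had enough counts in the 12 HFD libraries to be tested. All mice were C57BL/6J, obtained at 5 to 6 weeks of age, and the females were not ovariectomized. The HFD mice received 60% of their energy from fat for 13 weeks and 9 vehicle injections during the last 3 weeks. For comparison, 6 females and 6 males received a control diet (CD, 10% of the energy from fat) with the same vehicle, and 6 males on HFD received estradiol at 0.5 mg/kg (HFD+E2 M) in its place. Each library came from the colon tissue of 1 animal, and the stage of the estrous cycle is not given in the sources used here. In whole tissue, fewer cells of a type and less RNA per cell cannot be told apart.

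The colon wall holds a simple epithelium of absorptive, goblet and enteroendocrine cells, a connective tissue rich in immune cells, and layers of smooth muscle, nerves and vessels. Plasma cells below the epithelium secrete immunoglobulin A, which is joined into dimers by the J chain and carried into the gut lumen. Krt5 and Krt13 encode keratins of stratified squamous epithelium, Krt5 of its basal cells and Krt13 of the layers above them. The simple epithelium of the colon is built on other keratins, such as Krt8, Krt19 and Krt20. The question was which autosomal genes differed between the sexes under high-fat feeding, with the genes that followed Krt5 and Krt13 from animal to animal set apart.

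Between the sexes on HFD, 448 autosomal genes were differentially expressed (DEGs), which is 3.05% of those tested. DEGs were called from edgeR's quasi-likelihood test where the log2 fold change (females over males) went past 0.4 in either direction and p, unadjusted, was under 0.05. Expression was higher in females for 294 DEGs (2.0%) and lower for 154 (1.05%). At this p-value, 741 autosomal genes passed regardless of fold change, and 735 would be expected if no gene differed. Of the DEGs, 7 (0.0476% of the genes tested) passed the Benjamini-Hochberg adjusted threshold of 0.05 over all 15179 genes tested. With the adjustment over autosomal genes alone, 3 of the 7 remained. Over all autosomal genes tested the median log2 fold change was 0.01. On log2 CPM (counts scaled to the total of each library after TMM normalization), the sexes did not overlap for 20 genes higher in females (0.136%) and 27 lower in females (0.184%). The number of DEGs was 734 without HFD F 2 and 690 without HFD M 6, and between 345 and 590 when any other library was left out. DEGs were found on every autosome, from 8 on chromosome 14 (1.68% of the genes tested there) to 52 on chromosome 11 (4.34%).

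The libraries held from 8667177 to 14283233 counts on genes. Mitochondrial genes took 32.5% ± 2.0 (SD, n = 6) of the counts in females and 35.3% ± 3.72 (n = 6) in males, and the sexes overlapped (exact two-sided permutation test, p = 0.136). Defining genes of colon tissue were found in all 12 libraries. Hoxb13, a homeobox gene of the posterior gut, was at 98.4 to 142 TPM (transcript abundance relative to gene length and library total) in females and 92.0 to 179 TPM in males. Krt19 lay between 521 and 1092 TPM. The colonocyte list (14 genes tested, median log2 fold change -0.01) had no DEG, and neither had the posterior Hox list (8 genes, median -0.06).

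**Figure D1:**
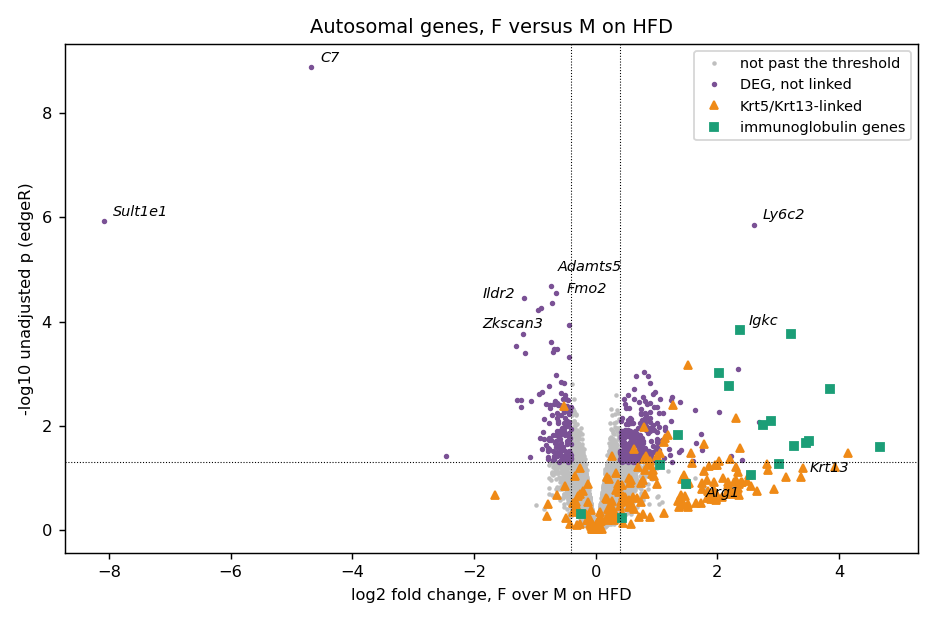
The plot sets the log2 fold change of females over males on HFD (x axis) against -log10 of the unadjusted p-value from edgeR (y axis) for the 14691 autosomal genes tested, with Krt5/Krt13-linked genes as orange triangles, immunoglobulin genes as green squares and dotted lines at the DEG thresholds. C7, Sult1e1 and Ly6c2 lie apart from the rest, and the linked genes spread to high fold changes with few of them (20 of 195) past the thresholds.

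The 2 autosomal genes with the lowest p-values were both far lower in females. C7 encodes a component of the membrane attack complex of complement. It was at 0, 0 and 0.913 TPM (lowest, median, highest) in HFD females and at 6.84, 10.4 and 14.3 TPM in HFD males. Its counts were 2 to 25 per female and 161 to 336 per male, so that every male stood far above every female. The log2 fold change was -4.68 ± 0.35 (SE), with an adjusted p of 3.26e-06 in edgeR. Sult1e1 encodes the sulfotransferase that inactivates estrogens. No count of Sult1e1 was found in any HFD female, while the males had 15 to 73 counts each (205 in all), or 1.52, 2.37 and 6.95 TPM. Against a floor of 3 counts over the 6 females, expression was at least 68.7-fold higher in males (edgeR, adjusted p = 0.0021). Both genes passed the adjusted threshold whichever library was left out.

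The same was seen on CD, with other animals. C7 was at most 0.609 TPM in CD females and 9.56 to 22.5 TPM in CD males, and Sult1e1 again had no count in CD females and 15 to 84 counts in CD males. In HFD+E2 M the levels were 4.62 to 10.7 TPM for C7 and 0.0567 to 4.30 TPM for Sult1e1, in each case reaching into the range of the vehicle males. Of the other 13 complement genes tested, none was a DEG, and the list's median log2 fold change was -0.09. C6, which acts beside C7 in the same complex, had at most 5 counts in any HFD library and was not tested.

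The bases before the start sites of C7 and Sult1e1 are shown here because these genes had the clearest sex difference, and those of Krt5 and Krt13 because the linked genes described further on are defined by them. Each sequence runs 5' to 3' over the 250 bases upstream of the start in RefSeq (GRCm38.p6), and all 4 genes lie on the minus strand. Capitals mark AGGTCA, the core motif bound by many nuclear receptors, on either strand (as TGACCT in Sult1e1), and ATAAAAG, a form of the TATA box, on the gene's strand.
C7, chr15:5063774-5064023: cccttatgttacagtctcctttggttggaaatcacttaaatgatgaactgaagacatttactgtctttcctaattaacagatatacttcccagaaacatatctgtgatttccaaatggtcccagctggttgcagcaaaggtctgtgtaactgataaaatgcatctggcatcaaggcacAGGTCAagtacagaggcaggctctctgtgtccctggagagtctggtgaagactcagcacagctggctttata
Sult1e1, chr5:87591612-87591861: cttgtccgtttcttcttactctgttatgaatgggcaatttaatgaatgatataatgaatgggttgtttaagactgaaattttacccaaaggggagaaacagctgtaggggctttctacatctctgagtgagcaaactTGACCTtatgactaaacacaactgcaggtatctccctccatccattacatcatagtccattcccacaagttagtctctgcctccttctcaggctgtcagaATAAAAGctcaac
Krt5, chr15:101712906-101713155: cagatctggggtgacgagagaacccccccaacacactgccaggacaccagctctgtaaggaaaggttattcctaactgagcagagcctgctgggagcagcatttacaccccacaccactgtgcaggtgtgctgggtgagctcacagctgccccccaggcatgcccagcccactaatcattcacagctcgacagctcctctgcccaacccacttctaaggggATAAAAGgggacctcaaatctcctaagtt
Krt13, chr11:100121567-100121816: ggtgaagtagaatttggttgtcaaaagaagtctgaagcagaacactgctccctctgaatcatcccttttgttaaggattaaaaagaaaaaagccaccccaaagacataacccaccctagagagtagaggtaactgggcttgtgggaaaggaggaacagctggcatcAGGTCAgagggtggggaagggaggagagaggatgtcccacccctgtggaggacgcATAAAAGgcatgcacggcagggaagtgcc
AGGTCA was found 72 to 67 bases before the start of C7, 113 to 108 before that of Sult1e1 and 84 to 79 before that of Krt13. ATAAAAG was found 29 to 23 bases before the starts of both keratin genes and 13 to 7 before that of Sult1e1. Among 32851 mouse promoters of the same length, 14.0% held AGGTCA and 4.83% held ATAAAAG, both counted on either strand. These matches are letters in a window and no measurement of binding.

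Ly6c2, a surface protein of inflammatory monocytes, was the only gene higher in females past the adjusted threshold. It was at 4.13, 9.49 and 12.9 TPM in HFD females and 2.53, 3.62 and 4.15 TPM in HFD males, with 20 to 63 counts per female and 3 to 13 per male. The counts did not overlap, although the lowest female and the highest male met in TPM. The log2 fold change was 2.60 ± 0.35 (edgeR, adjusted p = 0.0021), and the call held whichever library was left out. Ly6c2 is nearly identical to its neighbour Ly6c1, which had 53 to 126 counts per female and 90 to 169 per male, and a log2 fold change of -0.51 ± 0.19 (edgeR, adjusted p = 0.872). How reads were divided between the 2 genes is therefore uncertain. The monocyte and macrophage list did not follow Ly6c2 as a group, with a median of 0.09 over 14 genes tested. Cd14, a receptor for bacterial lipopolysaccharide, was a DEG (0.42 ± 0.16). On CD, Ly6c2 had at most 10 counts per female and 7 per male and was not tested.

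The other 4 genes past the adjusted threshold were lower in females by less. Adamts5, a protease that cleaves the proteoglycan aggrecan, was at 1.71, 1.93 and 2.06 TPM in females and 2.39, 3.49 and 3.97 TPM in males, without overlap (log2 fold change -0.74 ± 0.12, edgeR adjusted p = 0.0283). Fmo2, a flavin-containing monooxygenase that oxidizes drugs, was at 19.2, 24 and 26.1 TPM in females and 26.4, 36.0 and 57.3 TPM in males (-0.66 ± 0.11, adjusted p = 0.035). Its neighbour Fmo1 was also a DEG (-0.54 ± 0.17). Ildr2, a membrane protein with an immunoglobulin-like domain, was at 0.310, 0.368 and 0.596 TPM in females and 0.553, 0.919 and 1.43 TPM in males (-1.17 ± 0.21, adjusted p = 0.0408). Zkscan3, a zinc finger protein that represses genes of autophagy, was at 17.0, 22.3 and 27.4 TPM in females and 22.6, 34.1 and 52.0 TPM in males (-0.71 ± 0.13, adjusted p = 0.0446). For Ildr2 the ranges in TPM met at their ends, and for Zkscan3 the lowest male lay near the female median. These 4 calls were near the threshold. They remained in 4 (Adamts5) or 3 (Fmo2, Ildr2 and Zkscan3) of the 12 fits made without a single library, while the log2 fold changes of all 4 stayed between -1.28 and -0.55.

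**Figure D2:**
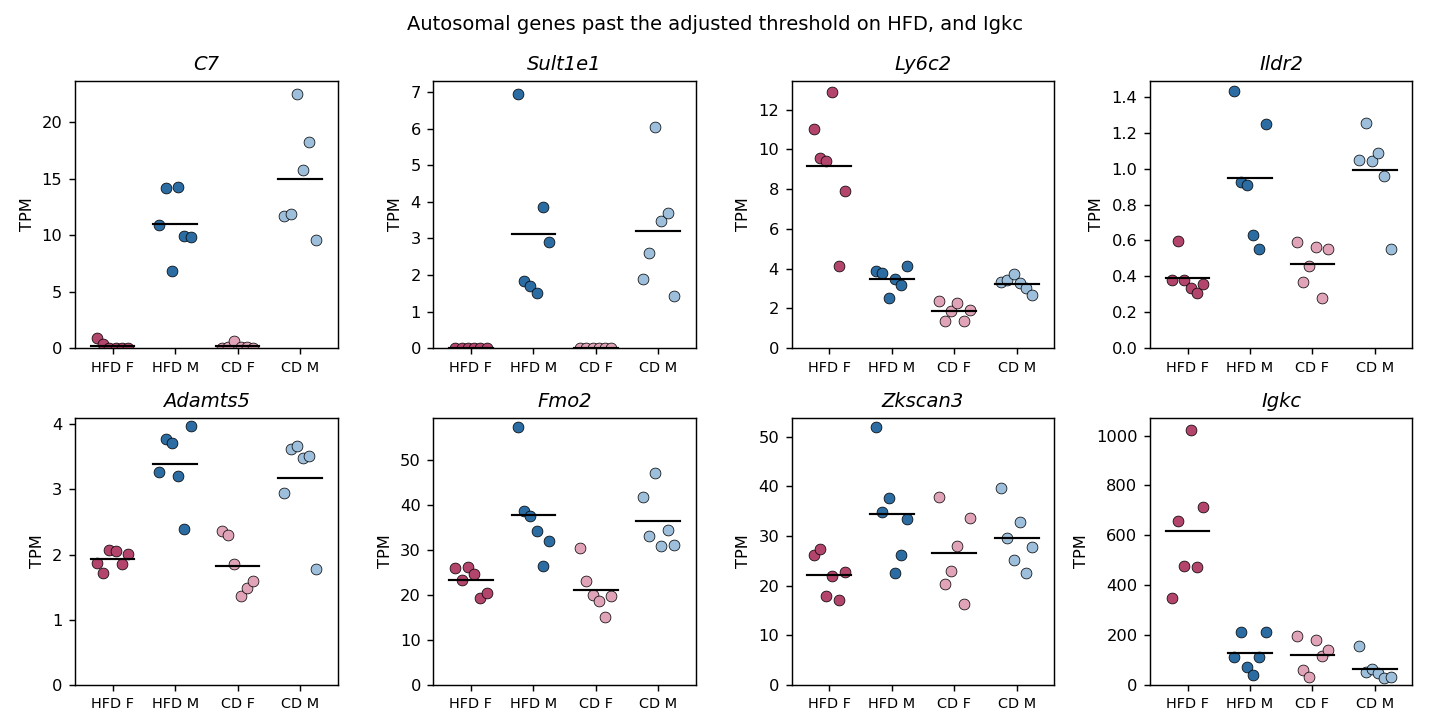
Each panel plots 1 of the 7 autosomal genes past the adjusted threshold, or Igkc, with the TPM of each animal as a point (y axis) for HFD F, HFD M, CD F and CD M (x axis) and a line at the mean. On HFD every male lies above every female for C7, Sult1e1, Adamts5 and Fmo2, and females lie higher for Ly6c2 and Igkc.

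The genes linked to Krt5 and Krt13 varied widely between the animals on HFD. Krt13 had 5651, 10, 5159, 4277, 919 and 1 counts in HFD females 1 to 6 and 0, 952, 1, 371, 0 and 2 in HFD males 1 to 6. In TPM, it was at 417, 0.528, 369, 273, 66.6 and 0 in the females and at 0, 81.9, 0.0768, 29.5, 0 and 0.399 in the males. Krt5 had 1378, 0, 1882, 1227, 277 and 0 counts in the females and 0, 297, 1, 90, 2 and 0 in the males. Both keratins were thus high in the same 6 animals, HFD F 1, 3, 4 and 5 and HFD M 2 and 4, and near 0 in the other 6. Their log2 fold changes, 3.37 ± 1.85 for Krt13 and 3.41 ± 1.65 for Krt5, were large beside other genes but so were their standard errors, and neither was a DEG (edgeR, adjusted p = 0.872 for both). In the 18 libraries of the other groups, Krt13 reached 58 counts and Krt5 26, both in CD M 3.

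**Figure D3:**
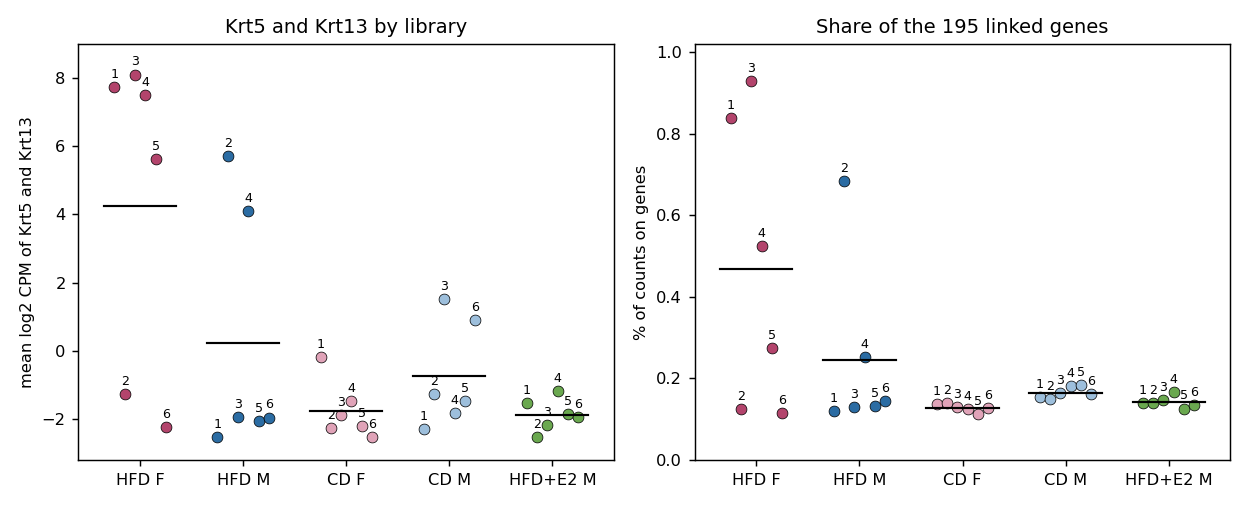
The left panel gives the mean log2 CPM of Krt5 and Krt13 (y axis) and the right panel the percentage of counts on the 195 linked genes (y axis) for each library, numbered within its group (x axis), with a line at the mean. HFD F 1, 3, 4 and 5 and HFD M 2 and 4 stand above the other libraries in both panels, at 0.252% or more of the counts.

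A gene was called linked when its deviation from the mean of its sex followed that of Krt5 and Krt13 over the 12 libraries, with a Pearson correlation over 0.8 to the mean log2 CPM of the pair. This held for 195 autosomal genes, 1.33% of those tested. At the boundary, Capg (0.802) and Ppap2b (0.801) were inside and Gins2 and Dcn (both 0.798) outside. The most closely linked genes after Krt13 were Calml3, Krt6a, Sprr3, Lypd3, Krt4, Tmprss11b, Arg1, Rptn, Spink5 and Tmprss11g. They include keratins, a small proline-rich protein and repetin of the cornified envelope, a protease inhibitor and membrane serine proteases of squamous cells. By family, 13 of the 19 keratin genes tested were linked, counting Krt5 and Krt13, which define the link. So were 4 of 4 Tmprss11 proteases, 3 of 6 small proline-rich proteins and 3 of 8 clade B serpins. Of the desmosomal cadherins 2 of 4 were linked (Dsg3 and Dsc3), but of the S100 genes 0 of 8. Of the squamous epithelium list, 22 of the 25 genes tested were linked, again counting Krt5 and Krt13. So were 5 of the 7 skeletal muscle genes tested, such as Tnnt3 of the troponin complex (0.40 to 39.3 TPM in females, 1.34 to 118 TPM in males), and the squamous and skeletal muscle genes were thus high in overlapping sets of animals. The part of either cell type in the sex difference was not tested.

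The linked genes took 0.839, 0.125, 0.929, 0.525, 0.274 and 0.114% of all counts in HFD females 1 to 6, and 0.120, 0.684, 0.131, 0.252, 0.133 and 0.145% in HFD males 1 to 6. On CD and in HFD+E2 M the share was between 0.112 and 0.183% in every library. Their median log2 fold change on HFD was 0.63, and 157 of the 195 (80.5%) were above 0, against 51.3% of the genes not linked. With 4 high libraries among the females and 2 among the males, few of these differences exceeded the spread between animals. There were 20 DEGs among the linked genes (10.3%, beside 3.05% of all autosomal genes tested). Of these, 19 were higher in females and 1 lower (Galnt15, a glycosyltransferase, -0.52 ± 0.16). None passed the adjusted threshold, and for none did the sexes fail to overlap. Among the 19 were Krt14, the partner keratin of Krt5 (4.15 ± 1.70), Ly6d (2.37 ± 0.92), the desmosome protein Pkp1 (0.88 ± 0.40) and the adhesion receptor Cd44 (0.63 ± 0.25). For Krt14, the females were at 0, 70.0 and 504 TPM and the males at 0, 0.435 and 35.7 TPM.

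The number of linked DEGs rested on single animals. It was 95 higher in females without HFD M 2, 41 without HFD F 6 and 39 without HFD F 2, and 7 to 11 without HFD F 1, 3 or 4 or HFD M 1, 3, 5 or 6. Within the 6 libraries low in both keratins, 1 of 128 linked genes tested was a DEG higher in females and 17 were lower. Within the 6 high libraries, 7 were higher and 3 lower. These splits use the values that define the linked genes, which sit near the floor in the low libraries (2 females and 4 males), so the counts are given as a description.

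Arg1, which splits arginine and is often read as a marker of alternatively activated macrophages, belonged to the linked genes (correlation 0.989). It was at 0, 22.7 and 87.3 TPM in HFD females and 0, 0.0407 and 52.7 TPM in HFD males, with a log2 fold change of 1.65 ± 1.53 (edgeR, adjusted p = 0.885). Other inflammation genes that the study named were not DEGs between the sexes on HFD either. The study reported Arg1 and these genes mainly for their response to HFD and estrogen ligands, partly by qPCR, which is a different comparison. Nos2 (correlation 0.814) and Cxcl5 (0.90) were themselves linked genes. Nos2 was at 0, 0.283 and 0.576 TPM in females and 0.074, 0.184 and 0.70 TPM in males. Cxcl5, a chemokine for neutrophils, had a log2 fold change of 1.40 ± 1.07 and Anxa1, an anti-inflammatory annexin, of 0.25 ± 0.43.

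Apart from the linked genes, 428 DEGs remained, 275 higher in females (median log2 fold change 0.67) and 153 lower (median -0.58). The split is not sharp. Krt17 of the squamous list (correlation 0.77, 2.69 ± 0.85) and, lower in females, 9230116N13Rik (0.77, -0.78 ± 0.35) lay just under the boundary. At a correlation over 0.7, 38 DEGs were linked in place of 20. Immunoglobulin genes led the higher group. Igkc, the constant region of the kappa light chain, was at 349, 567 and 1022 TPM in HFD females and 40.2, 113 and 212 TPM in HFD males, a 5.15-fold difference without overlap (log2 fold change 2.37 ± 0.42, edgeR adjusted p = 0.118). Igha, the heavy chain of immunoglobulin A, was at 164, 281 and 381 TPM in females and 15.1, 45.6 and 163 TPM in males (2.19 ± 0.53). Jchain, which links immunoglobulin A into dimers, was at 62.4, 118 and 184 TPM in females and 6.98, 20.5 and 50.2 TPM in males (2.35 ± 0.51). Ighg2b, a heavy chain of immunoglobulin G, was at 3.06, 6.00 and 10.7 TPM in females and at most 1.92 TPM in males (3.21 ± 0.62). For these 4 genes, every female had a higher CPM than every male, and none passed the adjusted threshold.

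Of the 18 immunoglobulin genes tested, 12 were DEGs, all higher in females, beside 2.0% of all autosomal genes. Their median log2 fold change was 2.65, and 17 of 18 were above 0, with Iglc3 at -0.24. Summed over the immunoglobulin genes, HFD females held 886, 1692 and 2349 TPM and HFD males 91.4, 252 and 560 TPM, without overlap. Several variable genes peaked in 1 animal. Igkv8-21 had 1924 counts in HFD F 2, 453 in the next highest female and at most 85 in a male, Iglv1 had 1327 in HFD F 1 and at most 98 elsewhere, and Ighv1-64 had 917 in HFD F 2 and at most 90 elsewhere. Since such genes resemble each other, the counts of a single variable gene are uncertain. The number of DEGs among the 18 was 11 to 14 when single libraries were left out, 10 within the libraries low in Krt5 and Krt13 and 4 within the high ones. Some of the 18 passed the count filter largely through the females, such as Ighg2b (0 to 15 counts per male) and Igkv1-135 (0 to 11). Their direction was thus partly set by the filter, and the share of DEGs is a description. With at least 10 counts in every library, 5 immunoglobulin genes were tested and 4 were DEGs higher in females.

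The genes of the plasma cell list that were tested and were not DEGs had smaller log2 fold changes than those that were. Of the 9 genes of the plasma cell list, 6 were tested, 3 of them DEGs (Igkc, Jchain and Igha), and the median was 1.63. Ighm, an immunoglobulin heavy chain, was at 1.06 ± 0.50. Sdc1, a surface marker of plasma cells, was at 0.38 ± 0.16, under the fold change minimum, and Pou2af1, a coactivator of immunoglobulin genes, was at 0.63 ± 0.55. In whole colon, these values cannot be assigned to plasma cells alone. Mzb1, Tnfrsf17 and Derl3 had at most 22 counts in an HFD library and were not tested. The summed level of the list was 753 to 1597 TPM in HFD females and 97.9 to 512 TPM in HFD males. The B cell list had no DEG among 13 genes (median 0.24), with Cr2, a receptor of follicular cells, at 0.862 to 15.7 TPM in females and 0 to 13.7 TPM in males. With the plasma cell score as a covariate, 1 immunoglobulin gene was a DEG higher in females and 2 were lower. That score itself contains Igkc, Igha, Ighm and Jchain, so this change follows from the choice of score and is no test. The part of plasma cell number in the sex difference was not tested.

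**Figure D4:**
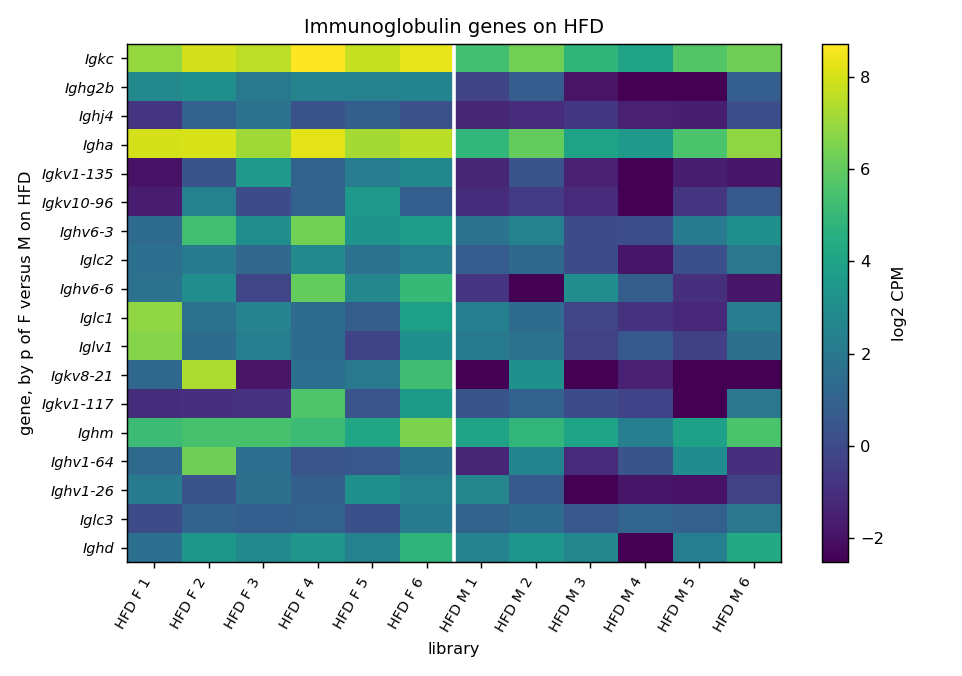
The heat map shows the 18 immunoglobulin genes (rows) in the 12 HFD libraries (columns), with the colour giving log2 CPM and the rows ordered by the p-value of females against males. Igkc, Igha and Ighg2b are higher in every female than in any male, while several variable genes peak in a single female.

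Small nucleolar RNAs, most of which guide the chemical modification of ribosomal RNA, were counted together with the related small RNAs of Cajal bodies, which guide that of small nuclear RNAs. They gave 16 DEGs among 61 genes tested, all higher in females, beside 2.0% of all autosomal genes, and 54 of the 61 were above 0 with a median log2 fold change of 0.51. This class was singled out after its values were seen. Gm25788 had 37, 60.5 and 89 counts in females and 13, 26.0 and 47 in males (0.97 ± 0.27), Snora30 had 24, 34.0 and 54 in females and 13, 17.0 and 32 in males (0.84 ± 0.25), and Snora78 had 21, 33.5 and 48 in females and 7, 17.0 and 30 in males (0.83 ± 0.29). The ranges overlapped in each case. The summed level of the class was 300 to 550 CPM in females and 291 to 483 in males. The number of DEGs was 10 without HFD F 6 or HFD M 1, and it was 21 within the libraries low in Krt5 and Krt13 and 2 within the high ones.

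Other DEGs higher in females, not linked, at 1 TPM or more in either sex and without overlap in log2 CPM, had smaller differences. Fbln1, a glycoprotein of the extracellular matrix, was at 18.2, 20.9 and 27.4 TPM in females and 8.90, 14.1 and 20.5 TPM in males (log2 fold change 0.66 ± 0.17). Timm10, a chaperone of protein import into mitochondria, was at 10.2, 11.6 and 14.7 TPM in females and 7.45, 8.44 and 9.55 TPM in males (0.53 ± 0.15). The predicted gene Gm37859 (0.79 ± 0.20), Pomt1, a protein mannosyltransferase (0.44 ± 0.14), and Cxcl16, a chemokine (0.41 ± 0.14), completed this group. None of these 5 passed the adjusted threshold (edgeR, adjusted p = 0.443 to 0.872).

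The corresponding genes lower in females differed by similar amounts. Pcolce2, which enhances the processing of procollagen, was at 0.663, 0.992 and 1.46 TPM in females and 1.76, 2.25 and 2.88 TPM in males (log2 fold change -0.94 ± 0.17, edgeR adjusted p = 0.0547). Lrrn4cl was at 1.98, 3.13 and 3.68 TPM in females and 4.94, 5.6 and 7.03 TPM in males (-0.90 ± 0.16, adjusted p = 0.0528). Nid1, which joins laminin and collagen in basement membranes, was at 13.2, 15.9 and 19.8 TPM in females and 18.6, 23.0 and 26.7 TPM in males (-0.44 ± 0.09, adjusted p = 0.0972). Ackr4, a scavenging chemokine receptor (-1.20 ± 0.25), and Dpep1, a membrane dipeptidase (-0.73 ± 0.16), were also lower in every female than in any male in log2 CPM. The collagen and matrix list as a whole showed no shift, with Adamts5 the only DEG of 19 genes and a median of 0.00.

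Among the other cell types, smooth muscle and vessels had medians below 0. In the smooth muscle list 11 of 13 genes were below 0 (median -0.14), and Actg2, the enteric smooth muscle actin, was the only DEG (384, 620 and 785 TPM in females, 607, 896 and 1090 TPM in males, -0.54 ± 0.16). In the endothelial list 8 of 10 were below 0 (median -0.31), with 1 DEG, the angiopoietin receptor Tek (-0.70 ± 0.16). Vip, the vasoactive peptide of enteric neurons, was the only DEG of 13 neuronal and glial genes (7.07, 11.6 and 20.4 TPM in females, 13.4, 19.5 and 30.9 TPM in males, -0.69 ± 0.20). Summed over its genes, the smooth muscle list held 3712 to 6305 TPM in HFD females and 5304 to 8253 TPM in HFD males, and its part in these differences was not tested.

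Of the 14 genes of the T cell list, 9 had too few counts to be tested. Of the 5 tested, 2 were DEGs (40.0%, beside 3.05% of all autosomal genes tested), at a median of 0.47. They were Il7r, the receptor of interleukin 7 (0.84 ± 0.29), and the kinase Lck (0.57 ± 0.25). The neutrophil list (3 genes tested, median 0.21), MHC class II (8, 0.25) and the chemokines and cytokines (15, 0.21) had no DEG. Cd74, the chaperone of MHC class II, was at 87.4 to 140 TPM in females and 54.0 to 196 TPM in males. Of 17 interferon response genes, 3 were DEGs (17.6%, beside the same 3.05%), with a median of 0.20. Oas2 (1.14 ± 0.40) and Oasl2 (0.87 ± 0.36) were higher and Ifit2 (-0.45 ± 0.16) lower in females. In the adipocyte list (9 genes, median 0.25), Cfd, the serine protease adipsin, was the only DEG, at 3.13, 7.21 and 16.3 TPM in females and 0.398, 1.35 and 6.99 TPM in males (2.02 ± 0.61).

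The medians of the colonocyte, tight junction, goblet cell and crypt lists lay between -0.01 and 0.14. The tight junction gene Cldn4 was a DEG, at 5.8, 12.1 and 17.7 TPM in females and 1.48, 6.02 and 7.67 TPM in males (1.24 ± 0.35, edgeR adjusted p = 0.746), and the only one among 17 genes of its list (median 0.06). Of 9 goblet cell genes (median 0.14), Clca1, a secreted mucus protein, was the only DEG and higher in females (0.65 ± 0.30). Of 8 enteroendocrine genes, 7 were above 0 (median 0.31). Chga, the granule protein chromogranin A, was the only DEG among them (0.68 ± 0.28). In the crypt and Wnt list (17 genes, median 0.11), Tcf7, a transcription factor of Wnt signaling (0.52 ± 0.25), was a DEG beside the linked Cd44. No DEG was found among 20 genes of cell division (median -0.05), 16 of fatty acid oxidation (0.01), 18 of lipid uptake, synthesis and storage (-0.03), 17 antioxidant enzymes (0.02) or 12 genes of endoplasmic reticulum stress (0.02). The same held for the 2 antimicrobial genes tested. Of the mesothelial list only Krt19 was tested, which is also a keratin of the colon epithelium, and it was no DEG. Mesothelium was therefore not assessed.

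Of the 19 circadian clock genes, 3 were DEGs (15.8%, beside 3.05% of all autosomal genes tested). Arntl, the activator at the core of the clock, was at 6.43, 10.2 and 16.0 TPM in females and 3.85, 8.26 and 10.5 TPM in males (0.73 ± 0.27). Ciart, a repressor of that activator (-0.78 ± 0.32), and Tef, a factor driven by the clock (-0.44 ± 0.16), were lower in females. Over the list, 14 genes were below 0 and the median was -0.25. Npas2, a partner of Arntl, had a log2 fold change of 0.66 ± 0.34 and was not a DEG, but it passed the DEG threshold in 6 of the alternative fits. The study names Npas2 among the genes that differed between the sexes on both diets. The ranges of Arntl, Ciart, Tef and Npas2 all overlapped between the sexes. Of 16 genes of steroid action, 3 were DEGs (18.75%, beside the same 3.05%), with a median of -0.05. Cyp11a1, which starts steroid synthesis (0.80 ± 0.25), was higher and Sult1e1 and Esr2, the estrogen receptor beta (-0.62 ± 0.23), were lower in females. Esr2 was at 0.460, 0.979 and 1.62 TPM in females and 1.28, 1.63 and 2.60 TPM in males. Of the immediate early genes, Atf3 was the only DEG of 13 (-0.77 ± 0.31).

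The sex difference was then compared between diets. Of the 275 unlinked DEGs higher in females on HFD, 255 were tested on CD, where 36 (14.1%) were DEGs in the same direction, beside 2.9% of all autosomal genes. Of the 153 lower in females, 151 were tested on CD and 60 (39.7%) were DEGs in the same direction, beside 6.19% of all. In sign alone, 172 of 255 (67.5%) and 124 of 151 (82.1%) had the same direction on CD, against 54.4% of all unlinked autosomal genes. The 2 diets share no animals. Of the 16 linked DEGs tested on CD, 6 had the same sign.

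**Figure D5:**
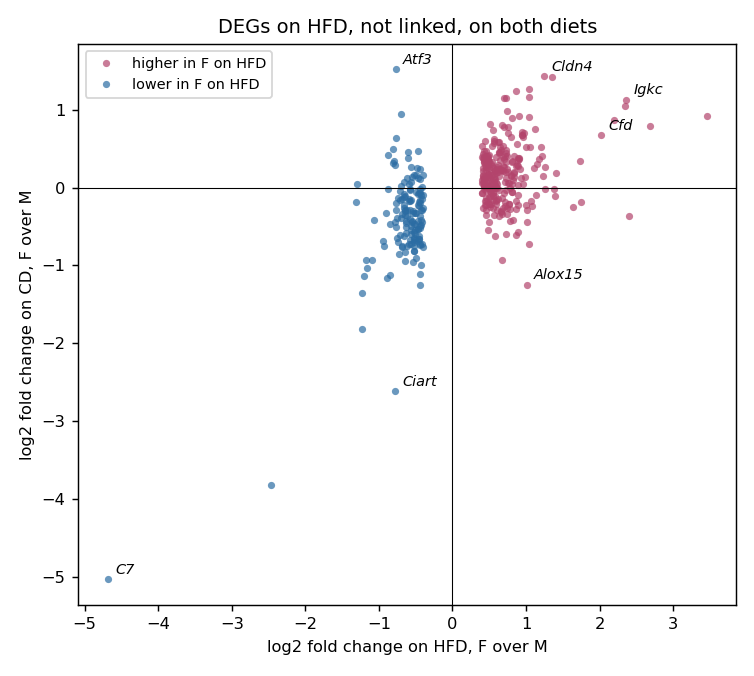
The plot sets the log2 fold change of females over males on HFD (x axis) against that on CD (y axis) for 405 unlinked HFD DEGs tested on both diets. Genes higher in females on HFD are in red and lower ones in blue, and Sult1e1 is not drawn. Most genes lower on HFD lie below 0 on CD (124 of 151, counting Sult1e1), while the genes higher on HFD lie on both sides (172 of 255 above 0).

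Adamts5 (-0.70 on CD), Fmo2 (-0.63), Ildr2 (-0.93), Lrrn4cl (-1.16), Pcolce2 (-0.69), Nid1 (-0.72), Ackr4 (-1.13) and Dpep1 (-0.86) were lower in females on both diets. Zkscan3 was near 0 on CD (-0.05). For the immunoglobulin genes, the summed level was 73.8, 268 and 506 TPM in CD females and 59.0, 93.5 and 414 TPM in CD males, so that the sexes overlapped on CD. In HFD+E2 M it was 241, 356 and 646 TPM. The lowest HFD female lay above the highest animal of all 4 other groups. The log2 fold change of Igkc was 1.13 on CD against 2.37 on HFD. Cldn4 (1.43 on CD), Arntl (1.16) and Ciart (-2.61) also kept their direction.

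Whether the sex difference itself depended on diet was tested as the interaction of sex and diet over 24 libraries. Of the autosomal genes, 795 (5.2% of 15287) passed the DEG thresholds for the interaction, but none the adjusted threshold in edgeR (lowest adjusted p = 0.104), with 1037 at an unadjusted p-value under 0.05 and 7 past the adjusted threshold in DESeq2. Without HFD F 2, 1370 genes passed the DEG thresholds. Among the 428 unlinked HFD DEGs, the 5 with the lowest interaction p-value were Alox15, Slc7a5, Adamts2, Plxdc1 and Ciart. Alox15, a lipoxygenase of macrophages and eosinophils, was at 0.394, 0.909 and 2.20 TPM in HFD females and 0.151, 0.427 and 0.623 TPM in HFD males (1.01 ± 0.41), and lower in females on CD (-1.25). Slc7a5, an amino acid transporter, changed sign as well (0.89 on HFD, -0.56 on CD), as did Adamts2, which trims procollagen (0.48 and -0.55), and Plxdc1 (0.67 and -0.92). Their interaction terms, between 1.03 and 2.25, had adjusted p-values of 0.319 to 0.397 in edgeR. For Atf3, the log2 fold change was -0.77 on HFD and 1.52 on CD (interaction -2.30 ± 0.77, adjusted p = 0.623).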

How the data were processed

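RNA-seq was performed by the authors on colon tissue of 30 mice, 6 biological replicates in each of 5 groups. Ribosomal RNA was removed, stranded libraries were prepared, and paired-end reads of 51 bases were made. The submitters' processing notes name bcl2fastq 2.19.1.403, CASAVA, Trim Galore, STAR, featureCounts and StringTie. After mapping to GRCm38 by STAR, the authors deposited the featureCounts output as raw counts per gene, without normalization. Whether counting used the strand is not given in the sources used here. TPM values from StringTie, relative to gene length and library total, were used for levels as deposited. Entries of the 21 genes listed more than once were summed. The counts of each library followed the TPM of the same library in 30 of 30 cases.

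From the counts, females and males on HFD (12 libraries, 8667177 to 14283233 counts on genes) were compared with edgeR 4.0.16 in R 4.3.3 by the quasi-likelihood F-test (robust fit) after filterByExpr and TMM normalization. CD was fitted in the same way, and the interaction of sex and diet over 24 libraries. All genes entered each fit and the Benjamini-Hochberg adjustment, and autosomal genes were then taken. DEGs were called at p under 0.05, unadjusted, and 0.4 in log2 fold change. These are the limits of the study, which estimated the FDR by the Benjamini-Hochberg procedure but does not say whether its limit applies to the adjusted value. Standard errors follow from the F statistic. Linked genes were found from log2 CPM (prior count 2) in Python 3.11.15. Sequences came from RefSeq. Scripts were tested on simulated data. The counts have no molecular identifiers, so depth limits genes of few counts, and p-values cover the spread between these animals only.

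Named genes were those past the adjusted threshold, up to 10 unlinked DEGs per direction with the lowest p-value that reached 1 TPM and did not overlap, Krt5, Krt13 and the 10 genes most closely linked to them, up to 4 DEGs of each of 32 lists (or its 2 most abundant genes), 8 genes that the study names, and the 5 unlinked DEGs with the lowest interaction p-value. Some items that this rule names are not reported here. The members and lists were chosen with earlier results of these data known. Alternatives were DESeq2 1.42.0 or its size factors, other filters and thresholds, all 24 libraries in one fit, mitochondrial genes left out of normalization, a replicate block, scores of Krt5 and Krt13, squamous epithelium, smooth muscle, B cells or plasma cells as a covariate, and each library left out. The plasma cell and squamous scores and the fits to the 6 libraries low or high in Krt5 and Krt13 were added after seeing the data.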

Additional observations from a re-analysis of the deposited data

Results flagged for a closer look

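Of 188 groups of 6 animals tested among the named genes, 14 held an animal that stood apart, by a gap to its nearest neighbour over 0.625 of the group's range in log2 CPM. Chance alone flags about 1 in 20 groups. In HFD males, HFD M 2 was apart on the high side for Cd44 (0.677 of the range, at 16.0 TPM), Krt17 (0.703, 4.04 TPM), Pkp1 (0.789, 21.6 TPM), Top2a (0.742, 59.2 TPM), Gsto1 (0.689, 444 TPM) and Slc7a5 (0.661, 2.29 TPM). This animal was also high in Krt5 and Krt13. HFD M 1 was apart on the low side for Pomt1 (0.755, 10.2 TPM) and Cldn4 (0.669, 1.48 TPM), and HFD M 4 for Cr2 (0.723, 0 TPM). In HFD females, the high animals were HFD F 5 for Fbln1 (0.654, 27.4 TPM), HFD F 4 for Oas2 (0.65, 0.851 TPM), HFD F 3 for Mki67 (0.698, 91.3 TPM) and HFD F 1 for Slc7a5 (0.686, 3.55 TPM), and HFD F 2 was low for Nos2 (0.657, 0 TPM).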

How the results depend on the processing

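The number of HFD DEGs (448) was 691 with DESeq2, 1110 without a filter on low counts, 741 without a fold change minimum, 821 with the plasma cell score and 772 with the smooth muscle score as a covariate, and 810 within the 6 libraries high in Krt5 and Krt13. It was 345 to 734 when single libraries were left out. The number past the adjusted threshold (7) was 38 with DESeq2, 15 with 24 libraries in one fit or with the smooth muscle score, 3 with the squamous score, with a replicate block or adjusted over autosomal genes only, 2 with the plasma cell score or within the libraries low in Krt5 and Krt13, 0 within the high libraries or with at least 10 counts in every library, and 3 to 7 when single libraries were left out. The filter of at least 10 counts left out C7, Sult1e1 and Ly6c2, each of which had fewer in some library. The cause of the other shifts was not tested. The CD DEGs (1312) were 2160 without a filter and 1177 to 1617 when single libraries were left out, and the interaction DEGs (795) were 1489 without a filter and 620 to 1370. The linked genes (195) were 392 at a correlation over 0.7, 71 at one over 0.9, 9 when chosen in the 18 libraries not compared (8 of them shared), and 177 to 251 when single libraries were left out. The balance of DEGs higher and lower in females, 294 to 154, was 224 to 296 with the Krt5 and Krt13 score, 225 to 283 with the squamous score, 357 to 464 with the plasma cell score and 149 to 166 within the low libraries.

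The linked genes were chosen by their correlation with Krt5 and Krt13, so a change of their sign once that score is a covariate follows from the choice and is no test. With the Krt5 and Krt13 score as a covariate, log2 fold changes reversed for Krt13 (-0.13), Krt5 (-0.28), Calml3 (-1.60), Krt6a (-0.66), Sprr3 (-1.57), Lypd3 (-0.999), Krt4 (-1.02), Tmprss11b (-1.87), Arg1 (-1.28), Rptn (-2.25), Spink5 (-1.16), Tmprss11g (-1.16), Nos2 (-0.48), Cxcl5 (-0.61) and Anxa1 (-0.33). With the squamous score they reversed for Krt13 (-0.023), Calml3 (-0.90), Sprr3 (-0.85), Lypd3 (-0.38), Krt4 (-0.90), Tmprss11b (-1.35), Arg1 (-1.05), Rptn (-1.08), Spink5 (-0.62), Tmprss11g (-0.60), Nos2 (-0.47), Cxcl5 (-0.58) and Anxa1 (-0.31), and with the plasma cell score for Lck (-0.11) and Clca1 (-0.042). Of the other values of the 67 named genes recalculated, 1280 kept direction and side of the threshold, 265 lost the threshold and 20 gained it. With the replicate number as a block, the DEGs were 518 on HFD, 1476 on CD and 1058 for the interaction. Same-numbered females and males on HFD correlated from -0.25 to 0.35 (3 of 6 pairs over 0.1), and 3 of 12 libraries correlated best with their own number. The labels give a replicate number only. These correlations cannot decide whether the numbers pair the animals, since a pairing need not show in them. DEGs with an unadjusted p-value only are limited by the spread between 6 animals and, for genes such as Ly6c2, by few counts.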

Other observations

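Some genes were chosen here after their values were seen. Clca4b, of a family of secreted or membrane proteins found in epithelia, was lower in females on HFD (log2 fold change -2.47 ± 1.04) and on CD (-3.82), and Inmt, a methyltransferase of small amines, likewise (-1.22 ± 0.36 and -1.82). Neither passed the adjusted threshold on HFD (edgeR, adjusted p = 0.872 and 0.746). Long noncoding RNAs gave 30 DEGs of 690 genes tested (4.35%), 19 higher and 11 lower in females (median -0.01). Pseudogenes gave 5 of 293 (1.71%), 3 higher and 2 lower. Of all autosomal genes tested, 3.05% were DEGs. The 16 microRNA genes tested gave none at the DEG threshold in edgeR, and none at an unadjusted p-value under 0.05.

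Some muscle genes among the linked genes lay in the other direction from the keratins. Myl1, a light chain of fast skeletal muscle myosin, had a log2 fold change of -1.65 ± 1.26, Tnnt3 of -0.80 ± 1.27 and Mybpc1, a myosin binding protein, of -0.79 ± 0.77. None was a DEG. The skeletal muscle list summed to 9.72, 46.1 and 273 TPM in HFD females and 14.3, 30.5 and 562 TPM in HFD males.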
